A study of Mus musculus with 4 samples.

Results

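The glucocorticoid receptors and a set of well-known glucocorticoid-responsive genes were followed in the ventral midbrain of wild-type mice and of mice labelled as REV-ERBα knock-outs. The set was given by gene name and held 10 symbols: the receptors Nr3c1 and Nr3c2 and the responsive genes Sgk1, Tsc22d3, Plin4, Fkbp5, Zbtb16, Pdk4, Errfi1 and Cdkn1a. A gene was taken where the array carried a probe set with that symbol alone, and 9 of the 10 had such a probe set, 1 each, out of 19938 genes measured in this way. The probe set of Cdkn1a carries a second symbol as well, so Cdkn1a is not analysed here. All 9 lay above the filter on dim probe sets, as did 13587 genes in all.

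Glucocorticoids are steroid hormones of the adrenal cortex that enter cells and bind receptors held ready by chaperones. The glucocorticoid receptor (Nr3c1) and the mineralocorticoid receptor (Nr3c2), which binds the same hormone with higher affinity, then act as transcription factors, often at palindromic glucocorticoid response elements. Their targets include brakes on inflammation, kinases, chaperones and enzymes of fuel use. Hormone release follows a daily rhythm, and REV-ERBα, a repressor of the circadian clock encoded by Nr1d1, is itself a nuclear receptor.

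The 4 arrays held RNA of the ventral midbrain, where the substantia nigra and ventral tegmental area hold their dopamine neurons, from 2 WT samples and 2 RKO samples, whose genotype the labels give as a knock-out of Rev-erba. All mice were males of 10 to 15 weeks on a C57BL/6J background, had lived for more than 10 days with 12 h of light a day and were then kept dark for 2 days before collection on the day after. The sources used here do not give which part of the gene was deleted, whether all cells carry the deletion, how many mice an array stands for or the hour of collection. The replicates are called biological in the labels, and p-values measure the spread between these samples only. They give no blood corticosterone either.

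Nr1d1 itself stood at 2897 and 3099 in WT and 1259 and 1229.7 in RKO (log2 difference -1.27, SE 0.0589). Its probe set thus kept signal above the median of the tested genes in RKO, and the arrays do not measure REV-ERBα protein. Median intensities of the tested genes were 558.6 to 558.7 in WT and 539.8 to 558.6 in RKO, the lowest in RKO replicate 1. The defining genes of dopamine neurons were present, with Th at 2168 and 2248 in WT and 3620.0 and 3664 in RKO. Across the 13587 tested genes the limma comparison of RKO with WT called 218 genes at an adjusted p under 0.05 (1.60%), 0.640% higher and 0.964% lower. An unadjusted p under 0.05 was found for 1739 genes (12.8%), and 43.2% of the tested genes lay above 0. Precision is limited by there being 4 arrays. With 2 arrays against 2 an exact permutation test of a single gene cannot go below p = 0.333, so the calls rest on limma, which borrows the spread of all genes.

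Among the 9 genes 3 rose in RKO, the kinase gene Sgk1, the lipid droplet gene Plin4 and the leucine zipper gene Tsc22d3, by 1.26-fold to 1.39-fold. None of the 9 fell. The receptors, Fkbp5, Zbtb16, Pdk4 and Errfi1 did not pass. The share called higher was 0.640% over all tested genes. The median log2 difference of the 9 was 0.07, against -0.01 over all tested genes. These genes were listed with earlier results of the same arrays known, so the count describes them and is not independent support. In tissue RNA, fewer cells of a type and less RNA per cell cannot be told apart.

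**Figure D1:**
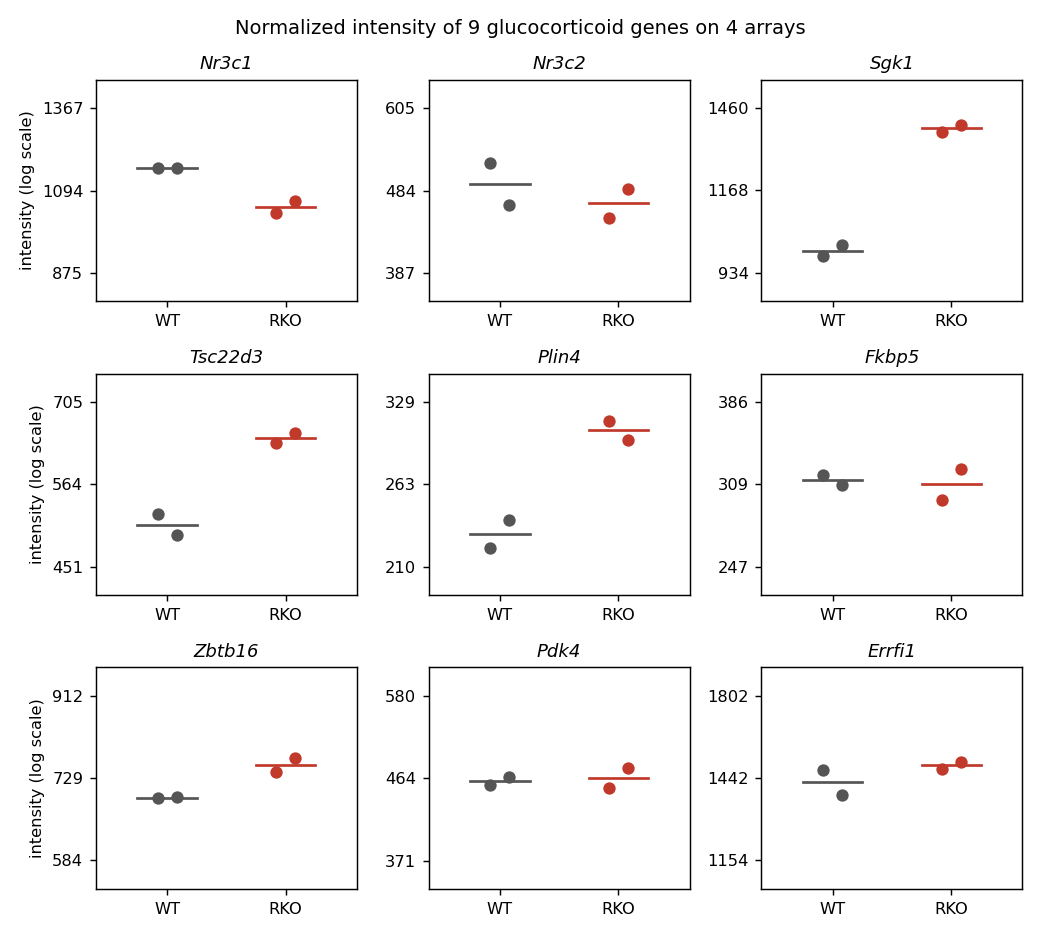
Normalized intensity (y axis, log scale, a separate range for each gene with the same span in fold) of 9 glucocorticoid receptor and responsive genes in 2 WT (grey) and 2 RKO (red) arrays, with 1 point per array and a line at the mean of the log2 values. Both RKO points lie well clear of both WT points for Sgk1, Tsc22d3 and Plin4, while the points of Nr3c2, Fkbp5 and Pdk4 overlap.

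The receptors came first in the order of signalling. Nr3c1, the glucocorticoid receptor, had intensities of 1162 and 1162 in WT and 1029.7 and 1064 in RKO. Both RKO arrays lay below both WT arrays, as they did for 24.6% of all tested genes. The log2 difference was -0.15 (SE 0.0555, 95% interval -0.27 to -0.03), and it did not pass (limma adjusted p = 0.269). Over the alternative settings it ran from -0.17 to -0.12 and passed in none of 13.

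Nr3c2, the mineralocorticoid receptor, had 521 and 466 in WT and 450.1 and 486 in RKO. The groups overlapped, and the WT arrays were farther apart (0.16 on the log2 scale) than the group means. Its log2 difference was -0.07 (SE 0.0691, interval -0.23 to 0.08, adjusted p = 0.753). The other steroid receptors on the list, the progesterone receptor gene Pgr (-0.05) and the oestrogen receptor gene Esr1 (-0.05), did not pass.

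The proteins that fold the receptor and carry its signal to chromatin gave no calls. In limma 0 of 14 tested chaperone and co-chaperone genes passed (1.60% over all tested genes), and 0 had an unadjusted p under 0.05 (12.8% over all). At a share of 1.60%, 0 calls in a list this short says little about it. The log2 differences of these chaperone genes ran from -0.06 for Hsp90aa1, the inducible HSP90, to 0.07 for Dnaja1. Of 10 tested coregulators 0 passed, also 0 at that unadjusted p, with a range from -0.09 for the coactivator gene Ncoa1 to 0.02. The medians were 0.01 and -0.02.

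Of the genes that supply or remove the hormone, 1 of 4 tested fell (0.964% over all tested genes). Hsd11b1 encodes the reductase that regenerates active glucocorticoid inside cells. It stood at 319.9 and 306 in WT and 253 and 255 in RKO, with both RKO arrays lower (log2 difference -0.30, SE 0.0563, adjusted p = 0.0238). It lost its call without WT replicate 1 (-0.27), RKO replicate 1 (-0.29) or RKO replicate 2 (-0.31). Hsd11b2, which encodes the enzyme that inactivates the hormone, had 149 and 163 in WT and 181 and 179 in RKO and did not pass (0.21, adjusted p = 0.146). Both WT intensities of Hsd11b2 lay below 167, the intensity at the filter. H6pd, which supplies the cofactor for the reductase, stood at 0.12 (adjusted p = 0.451) and the efflux pump gene Abcb1a at -0.06 (adjusted p = 0.846).

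The peptides and receptors of the stress axis gave 0 calls among 6 tested genes (1.60% over all tested genes), 3 of them at an unadjusted p under 0.05 (12.8% over all). The largest difference was that of Ucn, the urocortin gene whose main site in the brain is the Edinger-Westphal region of the midbrain. Ucn had 243 and 248 in WT and 308 and 279 in RKO (0.26, SE 0.0627, adjusted p = 0.0793). Both RKO arrays were higher, but the RKO arrays differed from each other by 0.14. Pomc, the precursor of ACTH, stood at 0.17 and Crhbp, which binds and buffers CRH, at -0.14, both with adjusted p over 0.3 (0.372 and 0.315).

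Sgk1 showed the largest difference of the 9 genes. It encodes a serine/threonine kinase that is induced by glucocorticoids and mineralocorticoids and acts on ion channels and transporters. Its intensities were 977 and 1006 in WT and 1369 and 1395 in RKO. The RKO arrays were both far above the WT arrays, and replicates lay within 0.04 of each other on the log2 scale in both groups. Sgk1 rose 1.39-fold (log2 difference 0.48, SE 0.0556, interval 0.36 to 0.60, adjusted p = 0.00136). It ranked 52 among the 13587 tested genes by the size of its difference. Sgk1 passed whichever array was left out, with differences of 0.46 to 0.50.

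Plin4 encodes perilipin 4, a coat protein of lipid droplets. It had 221 and 239 in WT and 313 and 296 in RKO, with no overlap. The rise was 1.32-fold (log2 difference 0.41, SE 0.0616, interval 0.27 to 0.54, adjusted p = 0.00697). Without RKO replicate 1, the higher of the RKO arrays for this gene, the difference was 0.37 and the call was lost (adjusted p = 0.111). Plin4 is among the dimmer genes here and does not reach the stricter filter at the 60th percentile.

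Tsc22d3 encodes GILZ, the glucocorticoid-induced leucine zipper protein, which restrains inflammatory transcription. Its intensities were 520.3 and 491 in WT and 631 and 647 in RKO. Again both RKO arrays exceeded both WT arrays, as for 17.2% of all tested genes. The rise was 1.26-fold (log2 difference 0.34, SE 0.0579, interval 0.21 to 0.47, adjusted p = 0.0137). This call was the least firm of the 3. Of the 4 arrays, the omission of WT replicate 1 left it in place, and it was lost without WT replicate 2 (0.30, adjusted p = 0.0515), RKO replicate 1 (0.36, adjusted p = 0.104) or RKO replicate 2 (0.32, adjusted p = 0.103). With no filter on dim probe sets, where 19938 genes are tested at once, limma called none of the 9 genes (4 at an unadjusted p under 0.05), and the adjusted p of Sgk1, Plin4 and Tsc22d3 was 0.058, 0.138 and 0.161.

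The sequences before start sites of these 3 genes and of Fkbp5, a target that did not pass, are shown with their motif matches. RefSeq start sites of GRCm38.p6 were at hand for 7 of the 9 genes (15 starts), all except Nr3c1 and Zbtb16. The 250 bases before each start were searched on both strands for the glucocorticoid response element palindrome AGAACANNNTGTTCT, its single arm AGAACA, the ROR element core AGGTCA to which REV-ERBα binds, the E-box CACGTG of the clock activators, the D-box TTANGTAA and the cAMP response element TGACGTCA. Matches to the palindrome, its arm, the ROR core and the E-box are in capitals. From the 6 starts of Sgk1 and the 3 of Tsc22d3, the window shown was picked for its matches to the palindrome and then to the arm. Plin4 and Fkbp5 have 1 start each, so the windows do not compare the genes on equal terms. The windows lie at chr10:21993640-21993889 on the plus strand and, on the minus strand, at chrX:140600523-140600772, chr17:56109783-56110032 and chr17:28486150-28486399.
Sgk1: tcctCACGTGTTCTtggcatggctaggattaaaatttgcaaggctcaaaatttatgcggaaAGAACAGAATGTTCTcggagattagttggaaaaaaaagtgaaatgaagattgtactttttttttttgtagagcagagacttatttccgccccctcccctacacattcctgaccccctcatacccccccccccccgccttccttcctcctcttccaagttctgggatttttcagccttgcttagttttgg
Tsc22d3: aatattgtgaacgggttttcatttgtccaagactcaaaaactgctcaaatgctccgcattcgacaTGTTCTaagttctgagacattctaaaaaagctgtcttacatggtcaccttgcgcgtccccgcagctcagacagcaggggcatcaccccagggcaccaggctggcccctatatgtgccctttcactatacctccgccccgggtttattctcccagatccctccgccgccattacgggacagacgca
Plin4: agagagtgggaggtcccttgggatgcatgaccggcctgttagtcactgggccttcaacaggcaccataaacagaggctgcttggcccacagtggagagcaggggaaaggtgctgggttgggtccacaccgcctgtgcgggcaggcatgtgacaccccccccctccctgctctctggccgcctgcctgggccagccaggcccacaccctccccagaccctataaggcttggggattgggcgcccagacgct
Fkbp5: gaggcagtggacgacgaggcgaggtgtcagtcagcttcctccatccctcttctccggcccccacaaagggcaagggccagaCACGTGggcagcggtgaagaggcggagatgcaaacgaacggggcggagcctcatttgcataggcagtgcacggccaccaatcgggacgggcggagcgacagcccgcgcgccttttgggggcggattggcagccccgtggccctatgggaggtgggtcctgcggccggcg

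The Sgk1 window holds a full palindrome, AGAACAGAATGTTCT, which begins 189 bases before that start and 965 bases before the last of the 6 Sgk1 starts. Over all promoters the palindrome was found in 3 of 32851 windows (0.00913%, or 0.0111% of genes), and in none of the windows of the other 6 genes. The looser form, which matches within the Sgk1 palindrome, was found in 127 windows (0.387%, or 0.44% of genes). It too was in no window of the other 6 genes. The same Sgk1 window also has a further arm and an E-box, which share letters with each other at its 5′ end. Single arms lie before 2 other Sgk1 starts, and ROR cores before 2 more, where 14.0% of all windows hold such a core. The Tsc22d3 window holds a single arm, found in 16.1% of all windows and in at least 1 window of 18.2% of genes. The windows of the other 2 Tsc22d3 starts hold no match to any of these motifs. The Plin4 window has no match either. Fkbp5 has an E-box, found in 6.02% of all windows, and 1 of the 2 Errfi1 windows has a cAMP response element, found in 1.55%. The D-box was in no window of the 7 genes and in 2.06% of all windows. A match describes the letters of the window and not a site in use, and a missing match says only that the letters are not within these 250 bases.

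Fkbp5, one of the most widely used readouts of glucocorticoid action, encodes a co-chaperone that lowers the receptor's affinity for hormone. It had 317 and 308 in WT and 296 and 322 in RKO, and the groups overlapped. Its log2 difference was -0.02 (SE 0.0611, adjusted p = 0.952). The 95% interval of -0.15 to 0.12 does not reach the differences measured for Sgk1, Plin4 or Tsc22d3. Its sign changed with the arrays kept, from -0.078 to 0.043.

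Zbtb16 encodes PLZF, a zinc finger repressor that glucocorticoids induce in many cell types. It had 690.5 and 693 in WT and 742 and 771 in RKO. The RKO arrays were both higher, by 0.13 on the log2 scale (SE 0.0558, interval 0.00 to 0.25), and the gene did not pass (adjusted p = 0.367). Pdk4, the kinase that slows the entry of pyruvate into the citrate cycle, had 455 and 465 in WT and 452 and 477 in RKO. Those values overlapped, and the difference was 0.01 (SE 0.0574, interval -0.11 to 0.14, adjusted p = 0.966).

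Errfi1, a feedback inhibitor of the EGF receptor, had 1473 and 1379 in WT and 1479 and 1507 in RKO. Its RKO arrays were just above the WT arrays, and the difference was 0.07 (SE 0.0585, interval -0.06 to 0.20, adjusted p = 0.732). Receptors and ligands of the EGF family gave 0 calls among 8 tested genes (1.60% over all tested genes). An unadjusted p under 0.05 was found for 1 of the 8 (12.8% over all), so these counts do not set the list apart. Their largest difference was 0.16 for the ligand gene Nrg1.

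**Figure D2:**
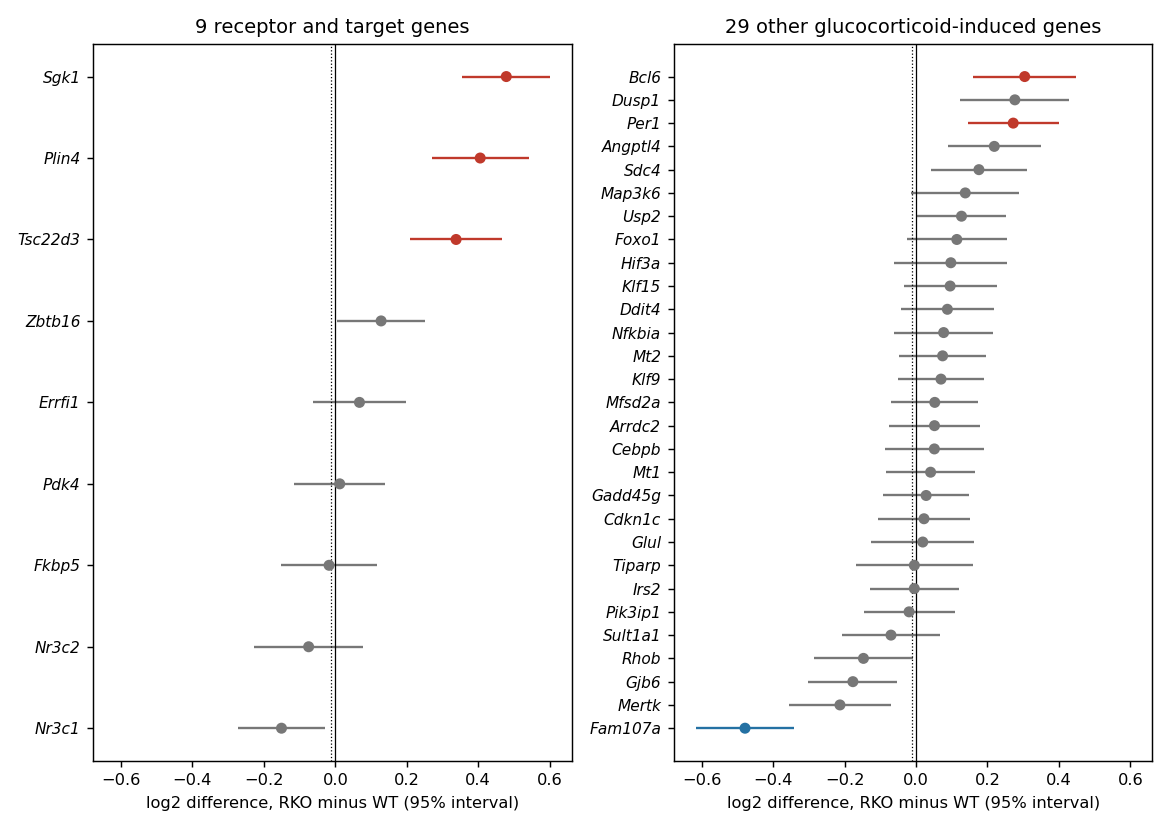
Log2 difference between RKO and WT (x axis) for the 9 receptor and target genes (left) and 29 other glucocorticoid-induced genes (right), with 95% intervals from limma. Red marks genes that rose, blue a gene that fell, grey genes that did not pass, and the dotted line the median of all tested genes (-0.01). Sgk1, Plin4 and Tsc22d3 stand at 0.34 to 0.48, and the right panel runs from -0.48 for Fam107a to 0.30 for Bcl6.

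A wider list of 33 genes that glucocorticoids induce in brain or other tissues, none of them among the 10, gave calls in both directions. The test covered 29, of which 2 rose (0.640% over all tested genes), 1 fell (0.964%) and 26 did not pass. An unadjusted p under 0.05 was found for 10 (12.8% over all tested genes). The median was 0.05 against -0.01 over all tested genes, and 21 of the 29 lay above 0 (43.2% over all). In 15 both RKO arrays were above both WT arrays (17.2% over all), and in 4 both were below (24.6% over all). This list too was chosen with earlier results of these data known, so its counts describe it and are not independent support. Of the genes without a test, 3 lay below the filter and 1 had no probe set of its own.

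The genes that rose were Bcl6 and Per1. Bcl6, a transcriptional repressor, had 305 and 288 in WT and 348 and 384 in RKO (log2 difference 0.30, SE 0.065, adjusted p = 0.0453). Per1, a clock repressor that glucocorticoids also induce directly, had 590.4 and 596 in WT and 695 and 738 in RKO (0.27, SE 0.0577, adjusted p = 0.0439). The groups did not overlap for either gene. Both calls were close to the threshold: Per1 lost its call whichever array was left out, with differences of 0.23 to 0.32, and of these omissions Bcl6 passed only without WT replicate 1, with differences of 0.23 to 0.38 over the 4. Bcl6 did not pass after quantile normalization either (adjusted p = 0.0745).

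Fam107a, an actin-bundling protein gene of astrocytes and neurons that stress and glucocorticoids raise, went the other way. It had 2355 and 2555 in WT and 1711 and 1811 in RKO. Both RKO arrays were clearly lower (log2 difference -0.48, SE 0.0627, adjusted p = 0.0027). Its call was lost without RKO replicate 1 (-0.44, adjusted p = 0.0607). Fam107a is strong in astrocytes, and among 10 tested astrocyte markers Gfap (-0.51) and Aldh1l1 (-0.31) fell as well while 5 lay above 0. The part of astrocytes in this fall was not tested.

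The next 4 genes of the list by size did not pass. Dusp1, a phosphatase that shuts off MAP kinases, had 1021 and 1059.7 in WT and 1179 and 1346 in RKO (0.28, adjusted p = 0.0856), with the RKO arrays 0.19 apart. It passed under 6 alternative settings, among them the 60th percentile filter and median centring. Angptl4, an inhibitor of lipoprotein lipase, stood at 0.22 (adjusted p = 0.112). The phagocytosis receptor gene Mertk stood at -0.21 (adjusted p = 0.163) and Gjb6, a connexin gene of astrocytes, at -0.18 (adjusted p = 0.193).

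Inflammatory genes that glucocorticoids hold down were mostly dim, and 5 of 10 could be tested. Of these 1 rose (0.640% over all tested genes) and 4 did not pass. Nos2, the inducible nitric oxide synthase gene, had 147 and 159 in WT and 193 and 185 in RKO (0.31, SE 0.0611, adjusted p = 0.0311). Its WT intensities lay below 167, and the call was lost without any array other than WT replicate 2 (differences of 0.25 to 0.34) and after quantile normalization (0.28). Vcam1, an adhesion molecule of endothelium, stood at -0.20 (adjusted p = 0.178) and Icam1 at 0.09 (adjusted p = 0.588).

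The relatives and partners of the genes that rose gave no calls. Over all tested genes 1.60% were called and 12.8% had an unadjusted p under 0.05, so 0 calls in lists this short says little about them. Some genes, such as Angptl4, stand in more than 1 list. Among 17 tested genes around SGK1, which include its upstream kinases, its targets and the related AKT kinases, limma called 0 (1 had an unadjusted p under 0.05). That gene was Akt2, with 1439 and 1471 in WT and 1219 and 1301 in RKO (-0.21, adjusted p = 0.130), and Nedd4l, the ubiquitin ligase that SGK1 inhibits, stood at -0.11 (adjusted p = 0.475). Among 15 paralogues of the listed genes, of which Cdkn1b and Cdkn1c belong to Cdkn1a, 0 passed (1 at that unadjusted p, Pdk1 at -0.12). Of the perilipins, Plin5 stood at 0.20 (adjusted p = 0.513), with its WT arrays 0.44 apart, and Plin1 at 0.12 (adjusted p = 0.445). Of 11 tested genes of PPAR signalling and fat oxidation, which share Pdk4, Plin4 and Angptl4 as targets, 0 passed (1 at that unadjusted p, Angptl4), with a median of -0.04. The p53 targets, a set to which Cdkn1a belongs, gave 0 calls among 9 tested genes, 0 of them at that unadjusted p, with a range of -0.10 to 0.10.

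**Figure D3:**
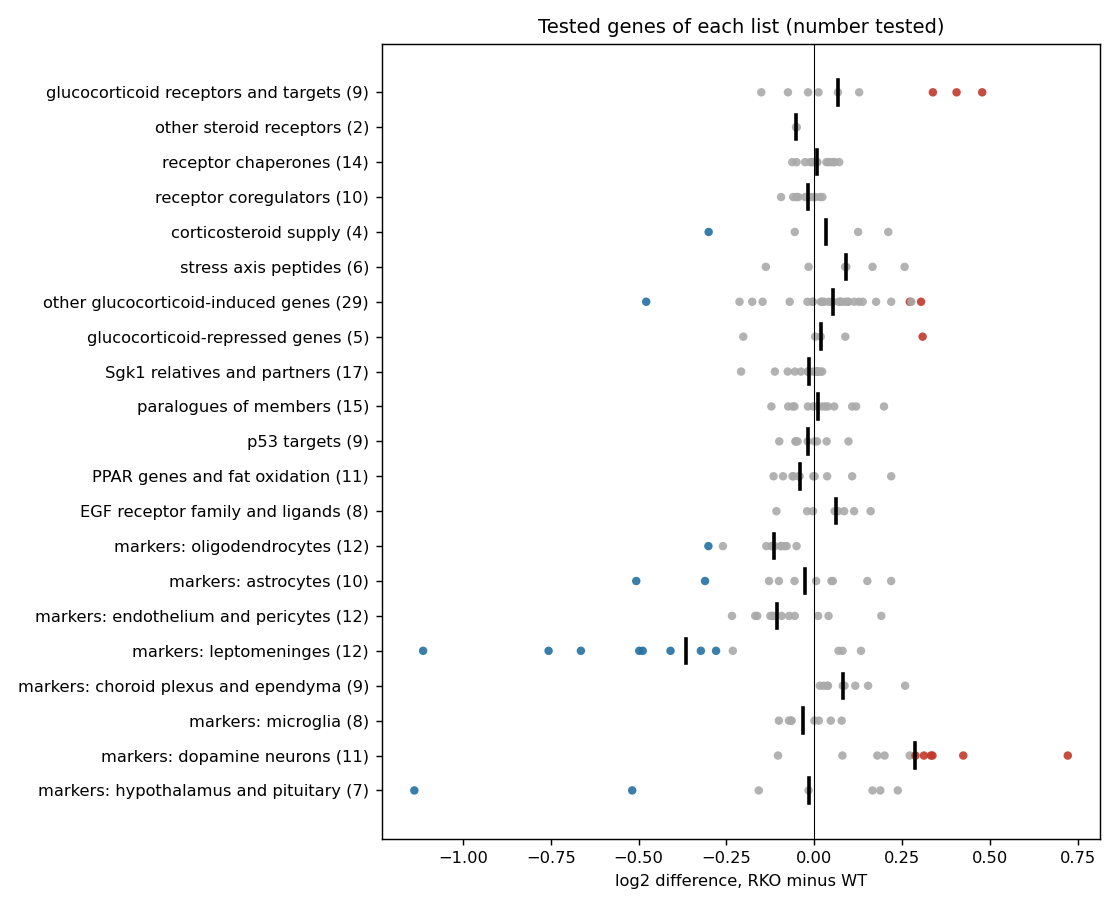
Log2 difference between RKO and WT (x axis) of every tested gene in each list (rows, with the number tested), with red for genes that rose, blue for genes that fell and grey for genes that did not pass; the black bar is the list's median. Differences of receptor chaperones and coregulators lie within 0.10 of 0, while marker lists of leptomeninges (median -0.37) and dopamine neurons (0.29) stand to either side.

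Markers of several cell types were measured beside these genes. Both RKO arrays lay below both WT arrays for 12 of 12 tested oligodendrocyte markers (24.6% over all tested genes). Of these markers only Opalin passed, where 0.964% of all tested genes were called lower. Their summed intensity was 46994 to 48368 in WT and 44192 to 44710.2 in RKO. Endothelial and pericyte markers lay below 0 for 9 of 12, where 56.8% of all tested genes did. They gave 0 calls (1.60% over all), and 4 had an unadjusted p under 0.05 (12.8% over all). Of these 4, the endothelial marker Cldn5 went the other way (0.19), with both RKO arrays above both WT arrays, and the rest lay below 0. The sum of the endothelial and pericyte markers was 10144 to 10148 in WT and 9336 to 9864 in RKO. The medians were -0.114 and -0.105. No marker in any list had an intensity of 0.

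Leptomeningeal markers fell for 8 of 12 tested genes (0.964% over all tested genes), among them Ogn (-1.11) and Islr (-0.76). The list had a median of -0.37 and a sum of 5957 to 6074 in WT against 4678 to 4691 in RKO. The RKO intensities of Ogn, 153 and 137, lay below 167, so the size of its fall is uncertain. The list did not go 1 way: the collagen genes Col1a1, Col1a2 and Col3a1, named after their values were seen, stood at 0.07 to 0.13 with both RKO arrays above both WT arrays, and did not pass.

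Dopamine neuron markers rose for 6 of 11 (0.640% over all tested genes), with Th at 0.72 and a median of 0.29. Only Aldh1a1 lay below 0 (-0.10), with both RKO arrays below both WT arrays, and it did not pass. The sum of the dopamine neuron markers was 17028 to 17435 in WT against 20862 to 21509 in RKO. Choroid plexus and ependyma markers lay above 0 for 9 of 9, where 43.2% of all tested genes did, with a median of 0.08. They gave 0 calls (1.60% over all), and 1 had an unadjusted p under 0.05 (12.8% over all). Their sum was 8953 to 9252 in WT and 9772 to 9826 in RKO. Most of that sum was Ttr (6973 and 6634 in WT, 7420.5 and 7330 in RKO), which did not pass (0.12). Microglia markers gave 0 calls among 8 tested genes (1.60% over all tested genes) and 0 at that unadjusted p. They summed to 5030.1 to 5145 in WT and 4865 to 5016 in RKO. Astrocyte markers summed to 37985 to 38214 in WT and 38208 to 38452 in RKO, but single genes differed in both directions. Of 10 tested 2 fell (0.964% over all), and 5 had an unadjusted p under 0.05 (12.8% over all). Both RKO arrays were above both WT arrays for 4 (17.2% over all) and below for 5 (24.6% over all). Of 7 tested hypothalamic and pituitary markers, Pmch (-1.14) and Hcrt (-0.52) fell (0.964% over all) and 5 did not pass, 3 of them above 0. That list had a median of -0.02 and a sum of 2051 to 2131 in WT against 1699 to 1761 in RKO. The part of any of these cell types in the differences of the 9 genes was not tested.

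For each gene that rose, the 3 genes closest to it over the 4 arrays were found by the root mean square distance of log2 values, each gene centred on its own mean. Closest to Sgk1 were Vstm4 (distance 0.016), the D-box repressor gene Nfil3 (0.0201) and Arntl, which encodes the clock activator BMAL1 (0.0209). Their log2 differences were 0.45, 0.47 and 0.47. Closest to Tsc22d3 were the angiopoietin gene Angpt1 (distance 0.00739), Ddc (0.00928), the decarboxylase gene of dopamine synthesis, and Acy3 (0.0199). Plin4 had Ermap (0.0316), Bcl3 (0.0343) and Trmt9b (0.0379) as its nearest genes. With 4 arrays in 2 groups this distance mostly ranks genes by the size of their difference, so it describes these arrays and no more.

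**Figure D4:**
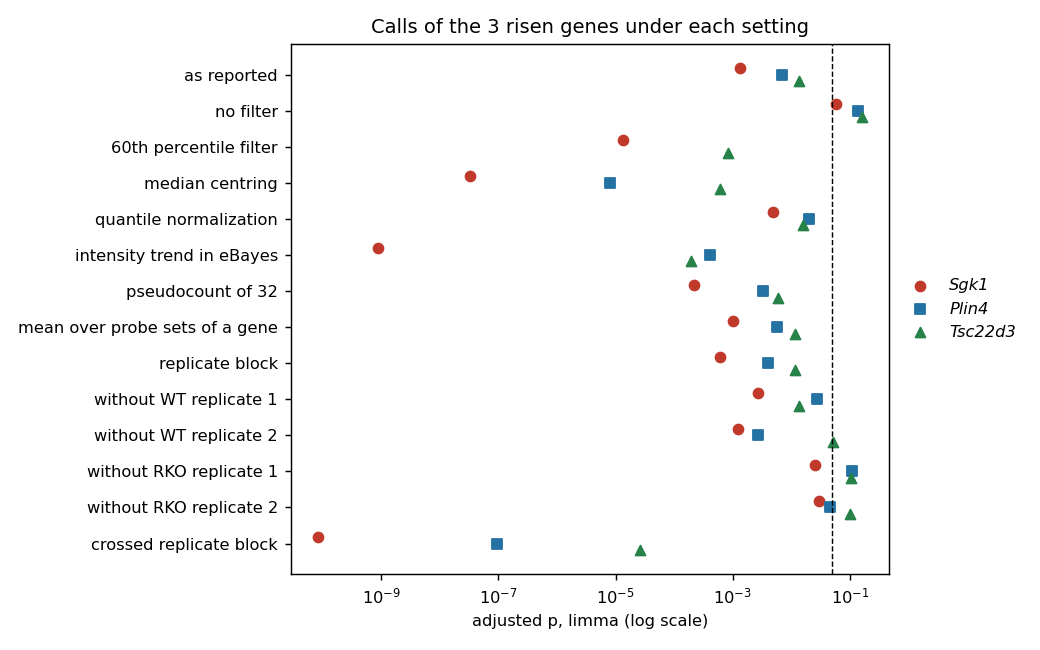
Adjusted p from limma (x axis, log scale) of Sgk1 (circles), Plin4 (squares) and Tsc22d3 (triangles) as reported and under each alternative setting (rows), with a dashed line at 0.05; Plin4 was not tested under the 60th percentile filter. Sgk1 crosses the line with no filter only (0.058), Plin4 with no filter and without RKO replicate 1, and Tsc22d3 with no filter and without each of 3 arrays.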

How the data were processed

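The table deposited by the authors gave normalized linear intensities, 1 for each array and each of 35556 probe sets on an Affymetrix mouse gene array. The submitters' processing notes name GCOS and RMA, with neither versions nor settings. Such normalization makes arrays alike, so a shift common to most genes would not be seen. Scale was read from the values; the sources used here do not say how the authors centred them.

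Here the values were taken to log2 with no pseudocount. The platform annotation gave 1 symbol for 21789 probe sets, which were used, several for 1621 and none for 12146. Each of 19938 genes was represented by its brightest probe set on average, and a filter removed the 6351 genes whose mean was under log2 7.38 (an intensity of 167), the 40th percentile over probe sets. The comparison used limma 3.58.1 (lmFit and eBayes, R 4.3.3) without covariates, 2 arrays against 2, with two-sided Benjamini-Hochberg adjustment over 13587 genes and calls at an adjusted p under 0.05. Standard errors are moderated (2 residual and 8.73 prior degrees of freedom). The code of the fit was checked on simulated data with the same spread for every gene. That check does not test the calls in real genes, whose spread differs. No arrays were duplicates (at most 5 identical intensities in a pair).

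The genes and lists were chosen with earlier results of these data known. Genes named from a list are those called and up to 4 others with the largest differences, for cell type markers at most 3 examples; the 9 genes are named whatever their values. Alternatives were no filter, a 60th percentile filter, median centring, quantile normalization, an intensity trend, a pseudocount of 32, the mean over probe sets, a replicate block and leaving out each array; a crossed block was added after seeing the data.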

Additional observations from a re-analysis of the deposited data

How the results depend on the processing

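The number of calls depended on the setting more than the differences did. Over all tested genes 218 were called, against 31 with no filter, 455 with median centring, 499 with an intensity trend and 73 to 293 when 1 array was left out (fewest without RKO replicate 1). Of the 9 genes 3 were called, against 0 with no filter and 1 to 3 when 1 array was left out. Of the other glucocorticoid-induced genes 3 were called, against 0 with no filter, 5 with an intensity trend and 0 to 2 when 1 array was left out. In the other lists, markers aside, 2 genes were called (Hsd11b1 and Nos2), against 0 with no filter, 1 with the 60th percentile filter (Akt2), 1 with quantile normalization and 0 to 2 when 1 array was left out.

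Among the genes named, signs turned for 8 that did not pass, when 1 array was left out: Nr3c2 (-0.16 to 0.0062), Fkbp5 (-0.078 to 0.043), Pdk4 (-0.027 to 0.051), Dnajb1 (-0.048 to 0.16), Ncoa3 (-0.13 to 0.029), Abcb1a (-0.14 to 0.025), Ptgs2 (-0.032 to 0.069) and Plin5 (-0.022 to 0.42). The cause was not tested. Nr1d1 kept its call throughout, from -1.32 to -1.22.

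The labels number the replicates of both groups alike. The deviations of WT and RKO arrays with the same number correlated at -0.11 over tested genes. With only 2 pairs this cannot show whether the numbers pair the samples. The replicate block gave 259 calls over all genes, against 218 without it, and 3 among the 9. Pairing the numbers crosswise, added after seeing the data, gave 696 calls over all genes, 3 among the 9, 6 among the other induced genes and 6 in the other lists.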
